A study of Bos taurus with 6 samples.

Results

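Unplaced scaffolds are stretches of the cattle genome that were assembled but never put on a chromosome, and 371 of them carried enough bisulfite reads to be measured in every library that covers such scaffolds. They were chosen from the deposited coverage of build UMD3.1 as every sequence outside chromosomes 1 to 29 and X with at least 3 covered cytosines and at least 10 calls in each of 5 libraries. A call is 1 read scored as methylated or unmethylated at 1 CpG cytosine, and the level of a scaffold is its methylated calls as a share of all its calls. Of 1373 scaffolds with any call, 371 passed (27.0%) and 1002 did not. Among the scaffolds that did not pass, 73 had calls in all 5 libraries, 72 of them with under 10 calls in their poorest library and 1 with too few cytosines.

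The series profiled blood DNA of adult male cattle by reduced representation bisulfite sequencing, in which DNA is cut at CCGG by MspI, short fragments are kept, and bisulfite turns unmethylated cytosine into a base read as thymine. Creole 2 and Creole 3, the Creole libraries with scaffolds, each came from an animal of the breed Costeno con Cuernos. Spanish 1 came from a Retinta, Spanish 2 from an Asturiana de los Valles and Spanish 3 from a Lidia animal. The sixth library, from a Sanmartinero animal (Creole 1), holds no scaffold in its deposited coverage and was not used. The comparison asks whether blood methylation differs between Creole cattle and Iberian breeds. Creole DNA was extracted with an UltraClean BloodSpin kit and Spanish DNA with a QIAamp kit, and the lane mark also follows the group. Group, extraction kit and lane therefore cannot be told apart. Blood is a mixture of cell types, and a change in cell makeup and a change within cells cannot be told apart either. Each animal has 1 library, so the spread within the Spanish group is also the spread between breeds.

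Scaffolds often fail to be placed where sequence is repeated, since near-identical copies cannot be ordered by overlap. In cattle, the centromeres of the acrocentric autosomes are built of several families of tandem satellite DNA, some with very short units and some with units of kilobase length, and such arrays are usually heavily methylated in somatic tissue. One assembled copy of a repeat can collect reads from many copies in the genome, so a depth on a scaffold need not be the depth of a single locus. The scaffolds here carry no gene name or repeat name in the files, and they are called by their sequence identifiers.

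The 371 scaffolds were highly methylated, and the unmethylated class that makes up a large part of the chromosomal windows was nearly missing from them. Averaged over scaffolds, with each scaffold weighted equally, the level was 75.8% and 76.5% in Creole 2 and 3, against 76.3%, 77.6% and 76.4% in Spanish 1, 2 and 3. The chromosomal windows, 15099 windows of 1000 bp that pass the same rule, averaged 53.9%, 53.7%, 54.2%, 54.3% and 53.5% in the same libraries. The scaffolds were higher in 5 of 5 libraries, by 21.9 to 23.3 points, with a mean difference of 22.6 ± 0.61 points (SD, n = 5). An exact two-sided sign-flip permutation test over the libraries gave p = 0.0625, the smallest that 5 libraries allow. At cytosines covered in all 5 libraries the difference was 14.6 points. Only 5053 scaffolds and windows together, 196 of them scaffolds, could be measured there, so the regions compared changed too. Against windows of 5000 bp the difference was 21.5 points.

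The median scaffold stood at 79.7% over the 5 libraries, with an interquartile range of 70.9% to 85.3%, against 69.0% and 15.2% to 81.3% for the windows. Of the 371 scaffolds, 325 (87.6%) lay between 60% and 90%, against 52.5% of windows. Only 4 scaffolds (1.08%) lay below 20%, against 4071 windows (27.0%). A level below 50% was found for 13 scaffolds (3.50%), against 35.1% of windows. Above 90%, the shares were 5.12% of scaffolds and 7.15% of windows, so the scaffolds did not reach the top of the scale more often.

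**Figure D1:**
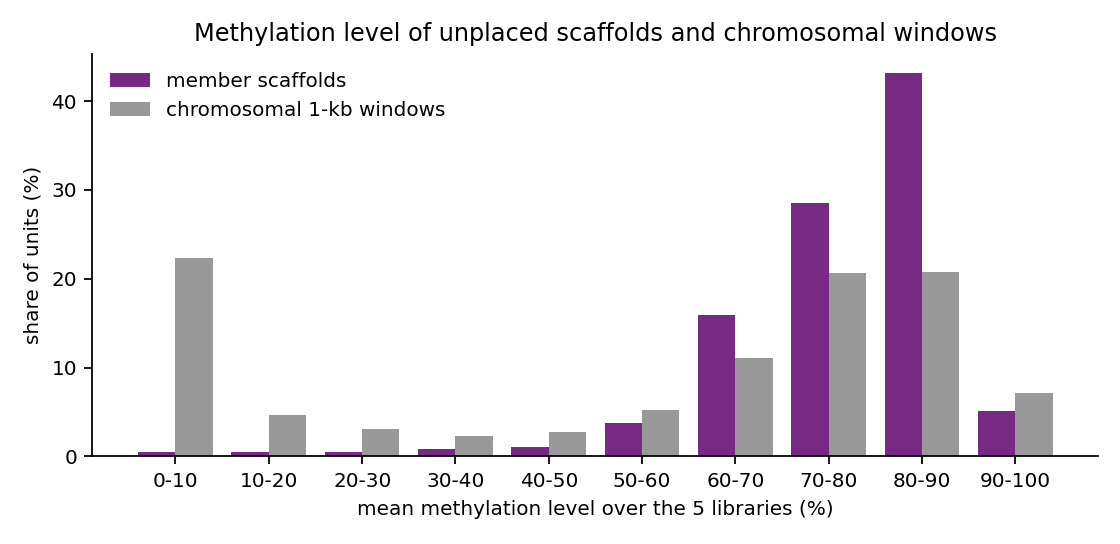
Share of units (%, vertical axis) by mean methylation level over the 5 libraries (%, horizontal axis, bins of 10 points) for the 371 member scaffolds (purple) and 15099 chromosomal windows of 1000 bp (grey). The windows have a second peak at the low end, where the scaffolds have 0.539% of their number in the lowest bin against 22.3% of windows.

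Single cytosines leaned the same way, but low levels were not nearly missing among them. Among scaffold cytosines with 10 or more reads, 68.9% to 72.1% were above 80% methylated, over the 5 libraries, against 49.1% to 55.5% on the chromosomes. Between 18.5% and 20.1% of scaffold cytosines were below 20%, against 41.0% to 47.6% on the chromosomes. Intermediate levels made up 8.14% to 11.1% of scaffold cytosines and 3.37% to 4.73% of chromosomal ones. Within a scaffold the levels of single cytosines had a median SD of 34.5 to 36.5 points, against 30.8 to 33.5 points within a window. A level near 80% therefore did not mean that every cytosine was at that level.

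Of the scaffolds outside the rule, 868 had 10 or more calls summed over the libraries. Their median level was 78.9%, with 701 (80.8%) at or above 60% and 99 (11.4%) below 50%. Pooled over all scaffolds outside the rule, calls were 76.6% and 79.0% methylated in the Creole libraries, against 63.2%, 78.1% and 73.8% in the Spanish ones. Just inside the rule, 75 scaffolds with 10 to 19 calls in their poorest library had a median level of 82.2%, from 8.44% to 95.4%. Just outside it, the 73 scaffolds with calls in all 5 libraries had a median level of 74.9%, from 22.7% to 98.2%.

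The 8 scaffolds that took the most reads were, with 1 exception, methylated at 60% or more when the 5 libraries were weighted equally. GJ060102.1 reached 60.9% in this way, although Spanish 1, which held most of its calls, stood at 40.1%. GJ059375.1 had most calls of all, 1309682 over the libraries. Its level was 81.3% and 78.3% in the Creole libraries, against 83.4%, 82.7% and 77.9% in the Spanish ones. Its calls were 657431 and 181779 in the Creole libraries, against 2911, 467466 and 95 in the Spanish ones. The level thus moved by 5.48 points between libraries whose depth on this scaffold differed by up to 6920 times, and the 95 calls of Spanish 3 leave a 95% Wilson interval of 68.6% to 85.1%. Such intervals cover counting error only, since PCR copies are not independent molecules.

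GJ059347.1 stood at 85.3% and 86.7% in Creole 2 and Creole 3, against 86.3%, 89.1% and 86.8% in Spanish 1, Spanish 2 and Spanish 3. GJ058815.1 stood at 72.7% and 69.1% in the Creole libraries, against 72.1%, 71.7% and 71.8% in the Spanish ones. GJ059770.1 stood at 65.2% and 69.7% in the Creole libraries, against 72.1%, 70.1% and 68.3% in the Spanish ones. These 3 deep scaffolds held their level within a range of 3.54 to 6.91 points. GJ059953.1 was at 87.0% and 90.6% in the Creole libraries, against 79.8%, 86.3% and 82.7% in the Spanish ones, and its groups did not overlap. GJ059304.1 was at 77.8% and 72.8% in the Creole libraries, against 75.0%, 78.5% and 63.6% in the Spanish ones, where the last value rests on 11 calls. GJ060102.1 ranged most among the deep scaffolds, with 53.7% and 81.8% in the Creole libraries against 40.1%, 87.5% and 41.4% in the Spanish ones. Of its calls, 80595 came from Spanish 1 and 11804 from Creole 3, and no other library had more than 41.

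The exception was GJ059828.1, a scaffold with 142422 calls that was low in every library. It stood at 20.6% and 22.4% in the Creole libraries, against 16.1%, 14.6% and 26.6% in the Spanish ones. The Creole values lay inside the Spanish range. Each library gave it at least 20142 calls over 160 to 216 cytosines, and 116 of its cytosines were covered in all 5 libraries.

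GJ058449.1 was the one scaffold with almost no methylation in any library. It had 0 methylated calls of 154 in Creole 2 and 0 of 2484 in Creole 3, against 0 of 682 in Spanish 1, 0 of 1999 in Spanish 2 and 1 of 3832 in Spanish 3. A count of 0 allows a level of up to 1.95% in Creole 2 and 0.121% in Creole 3, and of up to 0.440% in Spanish 1 and 0.150% in Spanish 2. Spanish 1 had no call at the 22 cytosines covered in the Creole libraries, out of 147 covered on this scaffold. Its CpG sites were dense, at 11.9 per 100 bp of covered stretch, where the median of the 358 scaffolds at or above 50% was 8.10 and the highest scaffold reached 12.8. The other low scaffolds were not denser than the rest: the 13 scaffolds below 50% had a median of 6.64 sites per 100 bp. Dense unmethylated CpGs are the usual mark of CpG island promoters, but no annotation of this build was used here and no gene is assigned.

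GJ059925.1 was at 0% and 18.2% in Creole 2 and Creole 3, against 12.3%, 0.895% and 10.8% in Spanish 1, Spanish 2 and Spanish 3, with 11 calls behind the Creole 3 value. GJ059812.1 was at 16.4% and 50.3% in the Creole libraries, against 16.7%, 0% and 10.9% in the Spanish ones. At its 28 cytosines covered in both groups, it was at 92.3% and 50.4% in the Creole libraries, against 0% in Spanish 2 and 8.37% in Spanish 3, and Spanish 1 had no call there. Low mean levels of this kind were thus not steady: 10 of the 13 scaffolds below 50% had a range over 25 points, and their ranges ran from 0.0261 to 83.3 points with a median of 49.2. GJ058449.1, GJ059828.1 and GJ059925.1 were the 3 with a narrower range.

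At the upper end, GJ057260.1 had the highest mean level, 96.4%, and stood at 99.9% and 98.5% in the Creole libraries, against 90.6%, 93.0% and 100% in the Spanish ones. GJ060095.1 averaged 95.4%, with 10 calls each in Creole 2 and Spanish 1. GJ059981.1 averaged 95.3%, GJ059574.1 95.0% and GJ059856.1 92.8%, and each of the 3 had a library with under 30 calls. Each of the 5 highest scaffolds thus had a library with 160 calls or fewer.

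Scaffolds near the middle of the scale were few, and the 3 nearest to 50% among those with a range under 20 points are given here. GJ060020.1 was at 55.0% and 54.4% in the Creole libraries, against 53.9%, 57.0% and 64.9% in the Spanish ones. GJ058682.1 was at 55.7% and 49.9% in the Creole libraries, against 64.3%, 58.3% and 57.3% in the Spanish ones. GJ059948.1 was at 51.8% and 53.6% in the Creole libraries, against 68.0%, 62.0% and 51.6% in the Spanish ones. Their mean levels lay at 57.1%, 57.1% and 57.4%, and each had at least 798 calls in every library. At its 11 cytosines covered in all 5 libraries, GJ059948.1 stood at 44.7% and 37.1% in the Creole libraries, against 50%, 68.2% and 48.8% in the Spanish ones, a range of 31.1 points. At shared cytosines the range was 12.5 points for GJ060020.1 and 7.50 points for GJ058682.1.

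**Figure D2:**
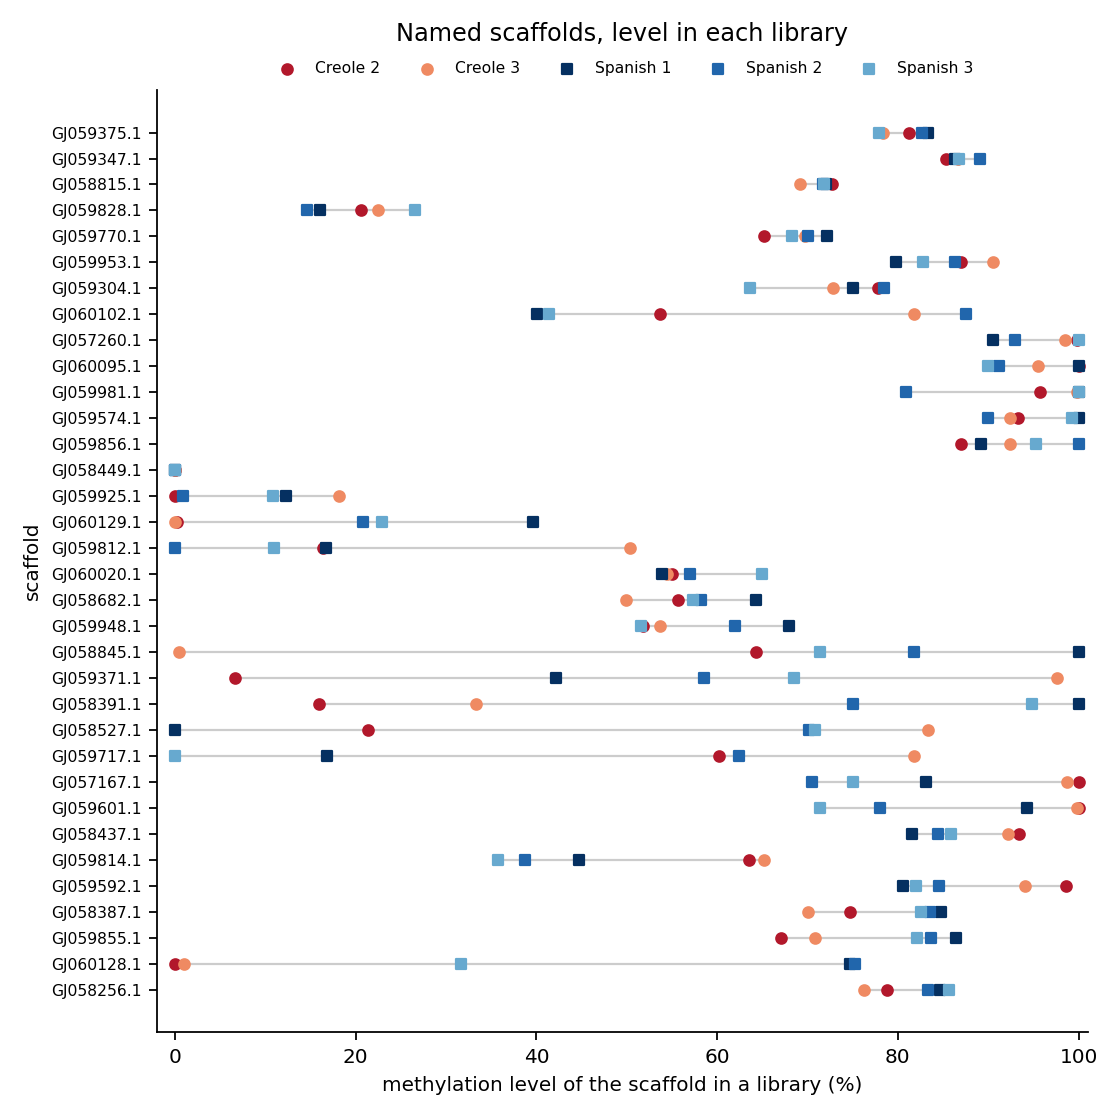
Methylation level (%, horizontal axis) of each named scaffold (rows) in each library, with Creole 2 and Creole 3 as red circles, Spanish 1, Spanish 2 and Spanish 3 as blue squares, and grey lines from the lowest to the highest library. From the top, rows are the deepest, the highest, the lowest, the intermediate and the widest scaffolds, then those of smallest p between groups, higher and then lower in Creole. The deep scaffolds at the top are narrow except GJ060102.1, and GJ058449.1 sits at or just above 0% in every library.

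Levels of 1 scaffold differed by several points between any pair of animals. The SD over the 5 libraries had a median of 7.68 points over the scaffolds and 8.78 over the windows, or 7.58 and 9.84 for units between 60% and 90%. The range over the libraries had a median of 18.6 points over the scaffolds and 20.8 over the windows. It was over 25 points for 120 scaffolds (32.3%), against 41.6% of windows, and under 10 points for 48 scaffolds (12.9%), against 25.6% of windows, many of which lie near 0%. Ranges were smaller where calls were many. For the 111 scaffolds with 10 to 30 calls in their poorest library the median range was 21.6 points, and for the 61 with more than 1000 it was 13.2. Windows showed 23.3 points and 10.1 points in the same classes.

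Pairs of libraries differed at the median scaffold by 6.45 to 8.43 points. The difference was smallest between Spanish 2 and Spanish 3, and 7.21 points between the Creole libraries. At cytosines covered in all 5 libraries, over 196 scaffolds, the Creole pair differed most, by 8.21 points, against 5.55 to 7.60 for other pairs. The Pearson correlation over the 371 scaffolds ran from 0.42 to 0.62. It was highest between the 2 Creole libraries, the only pair from 1 breed, and also at the shared cytosines, at 0.63. Over the windows it ran from 0.81 to 0.88, on a scale that also holds the unmethylated windows. There it was 0.82 between the Creole libraries and highest between Spanish 2 and Spanish 3. These are descriptions over units that share a library and its depth.

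Ranges were wider on scaffolds where the libraries covered few cytosines in common. Of 40487 cytosines covered on the 371 scaffolds in any library, 3768 (9.31%) were covered in all 5, and 141 scaffolds had no such cytosine. Over all scaffold cytosines the share was 6.09%, against 2.21% on the chromosomes. The 175 scaffolds that could not be measured on shared cytosines had a median range of 23.1 points, and 79 of them a range over 25 points. The 196 that could be measured had a median range of 16.7 points at all cytosines and 16.8 points at shared ones, and a range over 25 points for 41 and 59 of them.

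All 5 scaffolds of widest range lacked enough calls at shared cytosines to be measured there. GJ058845.1 stood at 64.3% and 0.404% in Creole 2 and Creole 3, against 100%, 81.8% and 71.4% in Spanish 1, Spanish 2 and Spanish 3, without overlap between the groups. The low value rests on 742 calls at 5 cytosines, and the Spanish values on 60, 11 and 14 calls. At its 10 cytosines covered in both groups, 4 of them covered in all 5 libraries, Creole 3 had 4 calls, of which 75.0% were methylated. All other Creole 3 calls, which were unmethylated, lay at 1 cytosine that no Spanish library covered.

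GJ059371.1 stood at 6.67% and 97.7% in the Creole libraries, against 42.1%, 58.5% and 68.5% in the Spanish ones. GJ058527.1 stood at 21.3% and 83.3% in the Creole libraries, against 0%, 70.2% and 70.8% in the Spanish ones. GJ059717.1 stood at 60.2% and 81.8% in the Creole libraries, against 16.8%, 62.4% and 0% in the Spanish ones. In these 3 the Creole and Spanish values overlapped. GJ058391.1 stood at 15.9% and 33.3% in the Creole libraries, against 100%, 75.0% and 94.8% in the Spanish ones, without overlap, on 3 to 18 cytosines per library.

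The 2 strands of a CpG differed at the median by 5.46 to 12.7 points on scaffolds, against 0 to 3.23 points on the chromosomes. The mean difference was 26.5 to 31.7 points on scaffolds, against 22.3 to 30.6 points on the chromosomes, and was lower on scaffolds in Creole 3, at 28.9 against 30.6. Away from the ends of covered stretches, where library preparation fills in cytosines, the difference was 22.2 to 27.1 points on scaffolds and 14.1 to 23.1 points on the chromosomes.

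The covered CpG sites of the scaffolds stood in a regular spacing that the chromosomal windows did not show. This was noticed in the data and is given without a test. Of 444719 spacings of 24 to 500 bp between sites of 1 scaffold, 8.36% were whole multiples of 46 bp, where an even spread over these lengths gives 2.10%. In the windows the share was 2.18%, and in the scaffolds outside the rule it was 12.6%. A spacing of exactly 46 bp was found 32.0 times per 100 sites on the scaffolds and 5.47 times in the windows. The next most frequent spacings were 92 bp, with 20.4 per 100 sites, 44 bp with 14.9, 48 bp with 14.0 and 138 bp with 12.4. Among the 46 divisors from 15 to 60 bp, 46 bp had the highest share relative to an even spread on the member scaffolds. Multiples of 23 bp made up 9.23% against 4.19% for an even spread, so odd multiples of 23 bp were rarer than in an even spread. In single libraries the share for 46 bp was 7.48% to 10.1%.

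**Figure D3:**
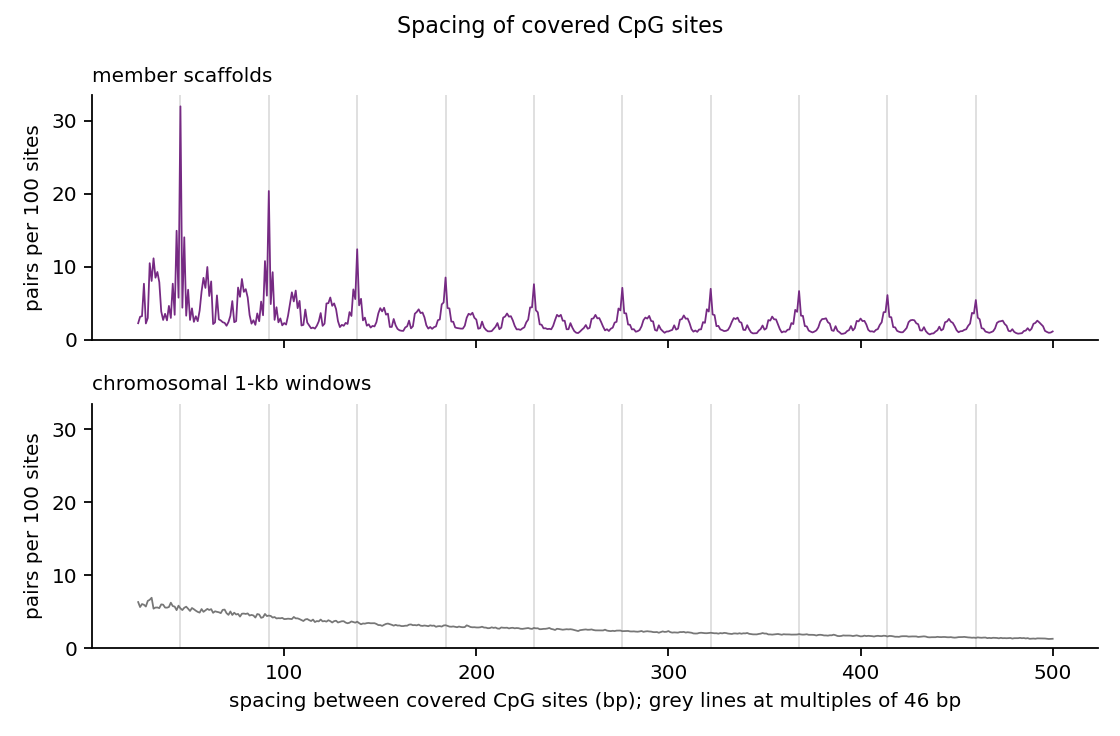
Pairs of covered CpG sites per 100 sites (vertical axis) by the distance between them (bp, horizontal axis) on the 371 member scaffolds (upper panel, purple) and in the chromosomal windows of 1000 bp (lower panel, grey), with grey lines at multiples of 46 bp. Peaks stand on the lines in the scaffolds, with 32.0 pairs per 100 sites at 46 bp, and are not seen in the windows, which show 5.47 there.

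The spacing was not carried by all scaffolds. Of 346 scaffolds with at least 100 spacings, the median share of multiples of 46 bp was 8.16%, with an interquartile range of 2.29% to 13.2% and a highest value of 23.1%. A share of 10% or more was found in 145 of them, which held 44.1% of the calls of the 371 scaffolds. GJ059592.1 had 19.6%, GJ059953.1 15.03%, GJ059304.1 14.3% and GJ059375.1 10.5%. The low scaffolds GJ058449.1 and GJ059828.1 had 1.63% and 1.78%, near the 2.10% of an even spread.

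The scaffolds with the 46 bp spacing were more methylated on average, though not at the very top. The 145 had a median level of 83.3% and ran from 63.6% to 95.0%. The other 201 had a median of 75.2% and ran from 0.00522% to 96.4%. None of the 145 was below 50%, against 13 of the 201. In single libraries the mean level of the 145 was higher by 7.76 to 10.9 points, or 9.89 ± 1.22 points (SD, n = 5), in 5 of 5 libraries. Their sites were also denser, at a median of 9.88 against 6.33 per 100 bp. Their range between libraries had a median of 18.0 points, against 18.6 for the other 201. With the limit set at 15% in place of 10%, a choice made after seeing the data, the mean difference was 6.97 points.

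Longer regular distances were seen on single scaffolds. GJ059347.1 held 82 pairs of sites exactly 1678 bp apart among its 236 sites, and GJ059770.1 held 24 pairs 1404 bp apart among 224 sites. Both had shares of multiples of 46 bp near an even spread, 2.17% and 2.29%. Among distances over the shorter range these 2 scaffolds therefore did not show the pattern of GJ059375.1.

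Depth on the scaffolds was uneven in a way that differed between animals. Scaffold calls numbered 2555661 and 1561232 in the Creole libraries, against 1164938, 1695561 and 1253067 in the Spanish ones, or 2.68% to 4.71% of all calls. Mean reads per covered cytosine on scaffolds were 110 and 62.5 in the Creole libraries, against 51.8, 63.4 and 54.9 in the Spanish ones. On the chromosomes the means were 62.0 and 62.9 in the Creole libraries, against 37.7, 26.0 and 46.5 in the Spanish ones. The log2 ratio of scaffold to chromosome means was 0.56 ± 0.51 (SD, n = 5), positive in 4 of 5 libraries, with p = 0.125 in an exact two-sided sign-flip permutation test. Medians went the other way in 5 of 5 libraries: 4 and 3 reads on scaffolds in Creole 2 and Creole 3 and 7, 14 and 6 in Spanish 1, Spanish 2 and Spanish 3, against 19, 14, 10, 16 and 19 on the chromosomes in the same order. The log2 ratio of medians was -1.37 (exact p = 0.0625). Between 24.8% and 35.1% of scaffold cytosines had a single read, against 10.7% to 22.9% of chromosomal ones, while cytosines with 1000 or more reads held 22.4% to 51.8% of scaffold calls against 13.5% to 27.4% of chromosomal calls. Within the rule, the highest and the lowest library of a scaffold differed in calls by 18.2 times at the median, against 15.9 times for windows. They differed by more than 10 times for 60.9% of scaffolds, against 63.9% of windows.

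A set of 25 scaffolds was deep in 3 animals and nearly absent in another. The 25 were picked for this after seeing the data, as scaffolds with at least 1000 calls in Creole 2, Creole 3 and Spanish 2 and under 100 in Spanish 3. In all, 110 scaffolds had at least 1000 calls in each of Creole 2, Creole 3 and Spanish 2. No count for other sets of libraries or for chromosomal windows stands beside the 25. The 25 are given without a test. They held 1400926 and 424475 calls in the Creole libraries, against 4936, 898370 and 173 calls in the Spanish ones. As a share of scaffold calls this is 54.8% and 27.2% in the Creole libraries, against 0.424%, 53.0% and 0.0138% in the Spanish ones. High calls in Creole 2, Creole 3 and Spanish 2 and low calls in Spanish 3 follow from how the 25 were picked. Spanish 1, which the choice did not use, had from 0 to 2911 calls per scaffold. The 25 include 4 members, GJ059375.1, GJ059304.1, GJ059260.1 and GJ058983.1, and 21 scaffolds outside the rule.

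The pooled calls of the 25 were 79.6% and 78.9% methylated in the Creole libraries, against 81.9%, 81.2% and 79.8% in the Spanish ones. GJ059375.1 alone held 657431 of the 1400926 calls in Creole 2. Taken singly, the 25 ran from 69.5% to 91.2% in Creole 2, from 72.6% to 91.7% in Creole 3 and from 73.2% to 92.8% in Spanish 2. The level of a scaffold ranged over these 3 libraries by 0.844 to 17.9 points, with a median of 4.30. GJ059253.1 was among the widest, at 74.8% and 87.2% in the Creole libraries, against 92.8% in Spanish 2. In the 24 with at least 100 spacings, multiples of 46 bp made up 7.69% to 24.6% of them, with a median of 12.5%. Without the 25, the log2 ratio of mean reads on scaffolds to chromosomes was 0.10, positive in 3 of 5 libraries. It is given without a test, since lower depth in Creole 2, Creole 3 and Spanish 2 follows from how the 25 were picked. With them and without them, the log2 ratio was 0.83 and -0.17 in Creole 2, -0.01 and -0.37 in Creole 3, and 1.29 and 0.32 in Spanish 2. In Spanish 1 it was 0.46 and 0.49, and in Spanish 3 it was 0.24 and 0.24. Whether the copy number of these sequences, fragment selection or mapping differed between the animals was not tested.

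**Figure D4:**
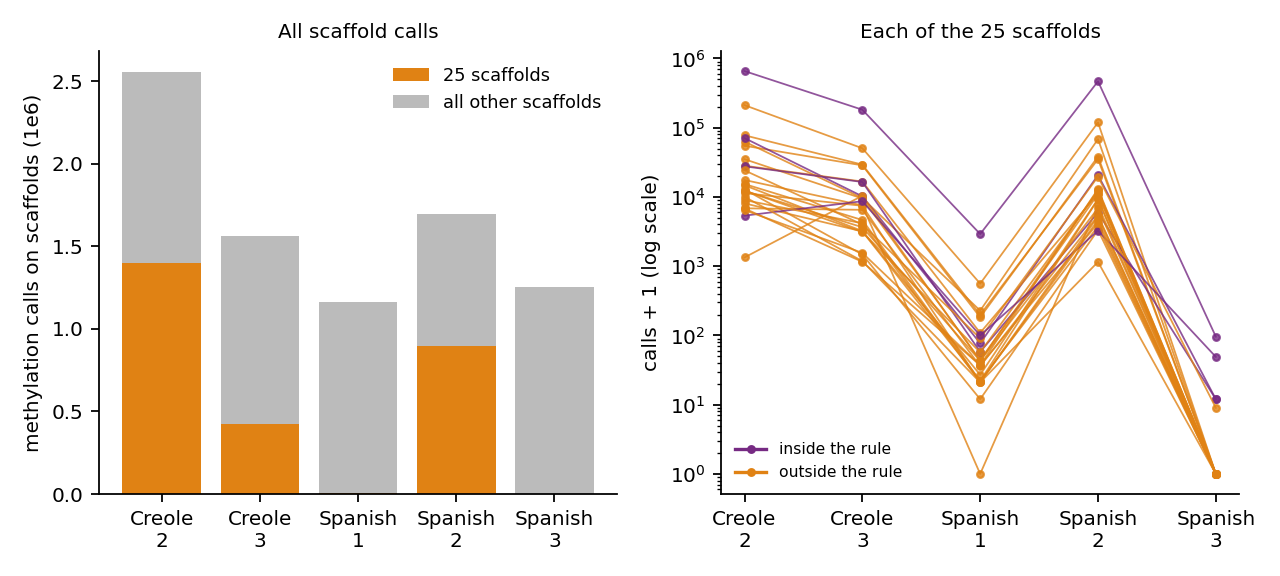
Left, calls on scaffolds (in units of 1e6) by library, split into the 25 scaffolds that are deep in 3 libraries (orange) and all others (grey). Right, calls + 1 on a log axis for each of the 25, with lines joining the values of 1 scaffold across libraries, for 4 scaffolds inside the rule (purple) and 21 outside it (orange). The 25 hold 54.8% of scaffold calls in Creole 2 and 53.0% in Spanish 2, against 0.424% in Spanish 1 and 0.0138% in Spanish 3.

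The mean level over the scaffolds was close in Creole and Spanish libraries, and how the groups stood apart varied with the cytosines and scaffolds used. The mean was 76.2 ± 0.505% in the Creole libraries (SD, n = 2) and 76.8 ± 0.739% in the Spanish libraries (SD, n = 3), a difference of -0.60 points. Over the 10 splits of the animals, an exact permutation test (two-sided) gave p = 0.6, where 2 against 3 animals cannot go below 0.2. With each call weighted equally the difference was 0.815 points, in the other direction. At cytosines covered in all 5 libraries, over the 196 scaffolds measurable there, the Creole libraries averaged 76.3% and 76.7%, against 79.0%, 78.6% and 77.8% in the Spanish ones. There the groups did not overlap, and the difference was -1.91 points with exact p = 0.2. With a minimum of 10 reads per cytosine, over the 168 scaffolds left, it was -1.20 points, also with exact p = 0.2. No split of these animals can give a smaller p. The difference at all cytosines was not recomputed on these smaller sets of scaffolds.

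For single scaffolds, methylated and unmethylated counts were tested with edgeR's quasi-likelihood test together with the chromosomal windows, with Benjamini-Hochberg adjustment over all 15470 units. At an adjusted p under 0.05 it called 0 of the 371 scaffolds and 0% of all units. At an unadjusted p under 0.05 there were 16 scaffolds (4.31%), against 5.53% of all units. Of the 16, 8 were higher in Creole (2.16%, against 3.16% of all units) and 8 lower (2.16%, against 2.37%). The smallest adjusted p of a scaffold was 0.423. limma called 0 scaffolds, with 11 at an unadjusted p under 0.05 (2.96%), against 7.38% of all units. edgeR's likelihood ratio test called 5 scaffolds (1.35%), 2 higher and 3 lower in Creole, against 3.32% of all units. The share of scaffolds called was thus at or below that of all units for every one of these tests.

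Creole and Spanish values did not overlap for 100 scaffolds (27.0%), against 22.3% of all units. Creole was higher in 45 of them (12.1%, against 10.6% of all units) and lower in 55 (14.8%, against 11.7%). At cytosines covered in all 5 libraries, 49 of the 196 measurable scaffolds did not overlap, 21 higher and 28 lower in Creole, against 22.9% of all units measured that way. Group means differed by more than 10 points for 106 scaffolds (28.6%), against 33.8% of all units, and by more than 25 points for 14 (3.77%), against 9.02%. The median difference over the scaffolds was -1.61 points, and over the windows -0.02.

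**Figure D5:**
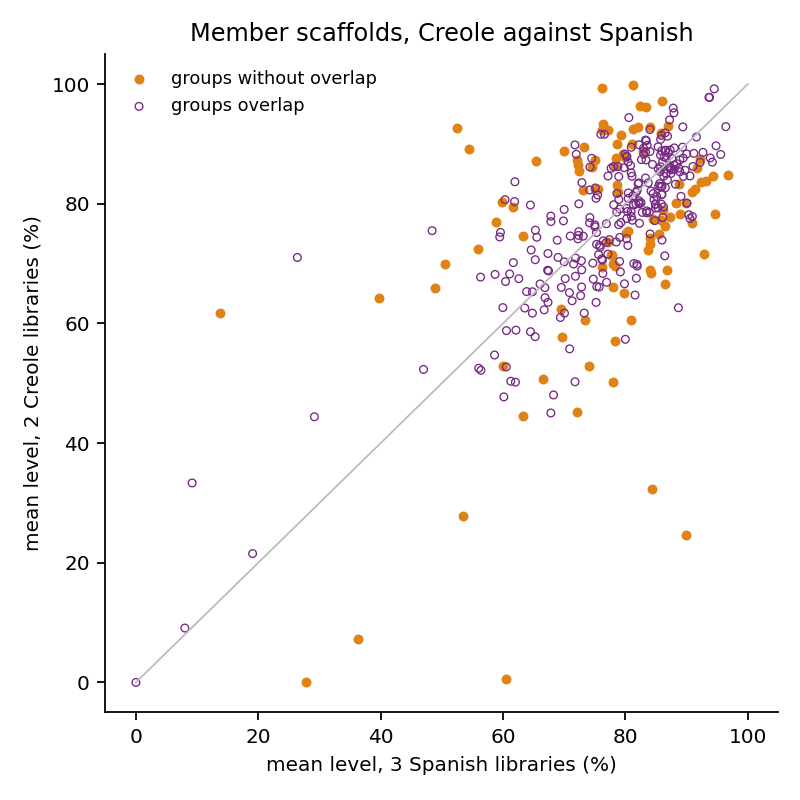
Mean level of the 2 Creole libraries (%, vertical axis) against the mean level of the 3 Spanish libraries (%, horizontal axis) for each of the 371 member scaffolds, with the grey line at equal levels. Orange points mark the 100 scaffolds whose Creole and Spanish values do not overlap, 45 above and 55 below the line.

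The scaffolds of smallest quasi-likelihood p that were higher in Creole included thin and deep ones. GJ057167.1 stood at 100% and 98.8% in the Creole libraries, against 83.2%, 70.5% and 75.0% in the Spanish ones, with 30 calls in Creole 2 and 48 in Spanish 3. The difference on the log2 odds scale was 4.80 ± 1.00 (SE). The quasi-likelihood test of edgeR gave an adjusted p of 0.454, and its likelihood ratio test 0.00419. At its 8 cytosines covered in both groups the Creole libraries were at 100% and 98.8%, against 80% in Spanish 1 and 100% of 73 calls in Spanish 2, with overlap between the groups and no call in Spanish 3. GJ059601.1 stood at 100% and 99.8% in the Creole libraries, against 94.3%, 78.0% and 71.4% in the Spanish ones, with adjusted p of 0.468 and 0.00187 by the same edgeR tests. Of its 102 covered cytosines, 7 were covered in both groups. GJ059814.1 was intermediate, at 63.5% and 65.1% in the Creole libraries, against 44.7%, 38.7% and 35.8% in the Spanish ones, with at least 902 calls per library. At its 58 cytosines covered in both groups it stood at 63.8% and 65.1% in the Creole libraries, against 51.8%, 37.6% and 52.6% in the Spanish ones. There too the groups did not overlap, but 0 of the 143 cytosines covered on GJ059814.1 were covered in all 5 libraries. The values thus rest on different cytosines among the 58. The quasi-likelihood adjusted p from edgeR was 0.678.

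GJ058437.1 stood at 93.4% and 92.2% in the Creole libraries, against 81.6%, 84.5% and 85.9% in the Spanish ones. At its 79 cytosines covered in both groups the Creole libraries were at 96.6% and 94.1%, against 49.2%, 82.4% and 80.5% in the Spanish ones. Of the 395 cytosines covered on this scaffold, 5 were covered in all 5 libraries. Its difference was 8.82 points at all cytosines and 2.14 points with calls thinned to at most 20 per cytosine. GJ059592.1, rich in the 46 bp spacing, stood at 98.6% and 94.1% in the Creole libraries, against 80.6%, 84.6% and 82.1% in the Spanish ones. Its difference was 13.9 points at all cytosines and 15.4 points at the 13 cytosines covered in all 5 libraries. Neither passed the adjusted threshold.

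Among the scaffolds lower in Creole, GJ058387.1 had the smallest quasi-likelihood p of all 371. It stood at 74.7% and 70.01% in the Creole libraries, against 84.8%, 83.6% and 82.6% in the Spanish ones. The log2 odds difference was -0.96 ± 0.17 (SE), and edgeR's quasi-likelihood adjusted p was 0.423. By edgeR's likelihood ratio test its adjusted p was 0.816, and by limma it was 0.810. Its difference was -11.3 points at all cytosines and -9.76 points at 19 shared cytosines. GJ059855.1 stood at 67.1% and 70.8% in the Creole libraries, against 86.4%, 83.7% and 82.2% in the Spanish ones, or -15.2 points at all cytosines and -12.0 at 30 shared ones. GJ058256.1 stood at 78.8% and 76.2% in the Creole libraries, against 84.6%, 83.4% and 85.7% in the Spanish ones, or -7.05 points at all cytosines and -6.78 at 48 shared ones. At shared cytosines, the groups did not overlap for GJ058387.1 and GJ058256.1. For GJ059855.1 they did, at 62.1% and 86.2% in the Creole libraries, against 93.8%, 83.7% and 80.8% in the Spanish ones. With calls thinned to at most 20 per cytosine, the differences were -7.82 points for GJ058387.1, -6.26 for GJ059855.1 and -2.68 for GJ058256.1. Without cytosines at stretch ends, GJ058387.1 differed by -3.97 points. None of the 3 passed the adjusted threshold.

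The largest differences on the log2 odds scale among the scaffolds lower in Creole could not be measured at shared cytosines. GJ060129.1 stood at 0.282% of 4618 calls in Creole 2 and 0% of 2912 in Creole 3, against 39.7% of 721 calls in Spanish 1, 20.8% of 2437 in Spanish 2 and 22.9% of 4216 in Spanish 3. Its difference was -27.7 points, or -8.67 ± 1.77 (SE) on the log2 odds scale. In edgeR the adjusted p was 0.454 by quasi-likelihood and 3.0e-05 by likelihood ratio. Of its 274 covered cytosines, only 30 were covered in at least 1 library of both groups. At those 30, 0 of 1627 calls in Creole 2 and 0 of 2912 in Creole 3 were methylated, against 0 of 452 in Spanish 2 and 0 of 1250 in Spanish 3, and Spanish 1 had no call. Every methylated Spanish call on this scaffold thus lay at a cytosine that neither Creole library covered.

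GJ060128.1 stood at 0% and 1.05% in the Creole libraries, against 74.7%, 75.3% and 31.6% in the Spanish ones, a difference of -60.0 points. In edgeR its adjusted p was 0.471 by quasi-likelihood and 0.000201 by likelihood ratio. The Creole libraries covered 18 of its cytosines and the Spanish ones 38, and 0 cytosines were covered in both groups. The values therefore compare different parts of the scaffold, and no level of the same cytosine can be set against another. GJ058391.1, the third scaffold that the likelihood ratio test called lower in Creole, had 8 cytosines covered in both groups, where it stood at 10.0% and 33.3% in the Creole libraries, against 100% of 27 calls in Spanish 1 and 100% of 5 calls in Spanish 3. None of the 5 scaffolds called by that test had enough shared cytosines to be measured at them.

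The authors' deposited table of differentially methylated regions lists 334 regions, of which 0 lie on unplaced scaffolds.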

How the data were processed

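Per the labels' protocols, blood DNA was cut with MspI and filled in at the ends, and size-selected fragments were amplified by PCR after bisulfite conversion. The submitters' processing notes name Trim Galore, Bismark, methylKit and build UMD3.1, with roles and versions not given in the sources used here. The deposited files of the authors hold whole counts of methylated and unmethylated calls per CpG cytosine, strands apart and not normalized, and a percent column that equals methylated over all calls in every line. The authors' table of regions gives group means as a fraction, and was used only to count regions on scaffolds. How reads that match several places were handled is not given in the sources used here.

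Calls were summed per scaffold and per chromosomal window of 1000 bp, each with 3 or more cytosines and 10 or more calls in each of 5 libraries. Median calls per scaffold ran from 575 to 956 over the libraries. Groups follow the breed labels. Scaffolds and windows were tested together with the quasi-likelihood F test of edgeR 4.0.16 in R 4.3.3. The fit had a term for each library and no trend in dispersion, and the Benjamini-Hochberg threshold was 0.05. The fitting code was run on simulated data of more even spread than the real data. That run does not vouch for the counts called here. limma 3.58.1 used log2 ratios with 2 added to each count. Exact permutation tests used scipy 1.17.1 for sign flips and numpy 2.4.6 for splits of the animals, in Python 3.11.15. Sites merge both strands of a CpG, and stretches end at gaps over 100 bp. Intervals are 95% Wilson intervals, and the limit for a count of 0 is 3 counts. The SE of a log2 odds difference is its size over the square root of the quasi-likelihood F statistic. It was thus worked back from the test and is no separate measure of precision. Cytosines covered in both groups have a call in at least 1 library of each.

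Scaffolds were named as the 8 with most calls, the 5 highest and 5 lowest by mean level, the 5 of widest range, the 5 of smallest p in each direction, and the 3 nearest to 50% with a range under 20 points. The p used for naming is that of the quasi-likelihood test. Members, lists and this naming rule were chosen with earlier results of these data known. No genome of UMD3.1 was used, so no sequence is printed.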

Additional observations from a re-analysis of the deposited data

Results flagged for a closer look

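Scaffolds that failed the rule because 1 group lacked them entered no comparison. In 24 of these, both Creole libraries passed the minimum of cytosines and calls and no Spanish library had a call. The deepest were GJ058581.1, with 26 calls in Creole 2 and 7045 in Creole 3, and GJ059678.1, with 176 and 2313. Thin ones included GJ058794.1, with 13 calls in each Creole library. In 11 others, all 3 Spanish libraries passed and no Creole library had a call, among them GJ059781.1, with 29, 288 and 5597 calls in Spanish 1, Spanish 2 and Spanish 3, and GJ058639.1, with 470, 1210 and 2742. Calls present in one group and missing in the other are what set them apart. Passing in 2 libraries asks less than passing in 3, so the 24 and the 11 are not like counts. Chromosomal windows were not counted this way, so no share over all units stands beside them. With 2 Creole and 3 Spanish libraries, and with 312 scaffolds read in a single library, these counts were not tested.

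Outside the rule, 21 scaffolds were deep in Creole 2, Creole 3 and Spanish 2 and had under 100 calls in Spanish 3. GJ059251.1 had most calls of these, with 211525 and 50473 in the Creole libraries, against 559, 119177 and 0 in Spanish 1, Spanish 2 and Spanish 3. Its level was 76.5% and 73.9% in the Creole libraries, against 78.2% in Spanish 1 and 77.8% in Spanish 2.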

How the results depend on the processing

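No paired analysis was possible because the replicate numbers are only names, given to animals of different breeds. The count of 0 scaffolds called held for limma, the scaffolds fitted alone, shared cytosines, a minimum of 10 reads, thinning to 20 calls, removal of stretch ends, the stricter rule, merged strands and without each library in turn, and was 5 with edgeR's likelihood ratio test. Leaving out a Creole library leaves 1, assumed to vary like the Spanish ones. The Creole minus Spanish mean of -0.60 points ran from -0.958 to -0.175 without each library and was 0.815 with each call weighted equally, -1.91 at shared cytosines and -1.20 at 10 or more reads (exact p = 0.2, the smallest possible, for both of these). The scaffold minus window difference ran from 14.6 to 24.6 points, and from 22.4 to 22.8 without each library. The log2 depth ratio of 0.56 ran from 0.380 to 0.704 without each library, but was -1.37 for medians and -0.12 for members against windows. The share of 46 bp multiples, 8.36%, was 10.1% in Creole 3 alone and 9.88% in Spanish 3 alone. The level difference of scaffolds with that spacing was 6.97 points at a limit of 15%. The single-library settings, the 15% limit and the removal of the 25 scaffolds were chosen after seeing the data. Of the group differences of the 10 scaffolds of smallest p, 114 alternative values kept their direction and side of the threshold, 4 passed it under the likelihood ratio test and 0 reversed. Of the mean levels of named scaffolds, 214 moved by less than 1 SD and 5 by more. The cause of these changes was not tested. Calls in the poorest library limit single scaffolds.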
